A study of Mus musculus with 4 samples.

Results

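White adipose tissue (WAT) of mice labelled Pnpla7 knockout was compared with WAT of wild-type mice on 2 of the 4 arrays of the study. The wild-type array held RNA of Pnpla7+/+ mice and the other array RNA of Pnpla7-/- mice, all of the C57BL/6N strain and 4 weeks old, with no treatment in the labels. Equal amounts of RNA from 5 animals were pooled for each array, and 200 ng of the pool was labelled with the dye Cy3. The remaining 2 arrays held liver of the same genotypes and are given here only beside values from fat. The fat depot, the deleted part of the gene and the sex of the animals are not stated, and the extraction protocol names livers for every sample. With 1 pooled array per genotype nothing was replicated, so no test across animals was possible, no p-value is given and every difference below describes this pair of pools.

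A gene was followed when at least 1 of its probes was well above background on both WAT arrays, which held for 14895 of 19775 genes with a symbol. Levels are log2 values relative to the 75th percentile of the array, so a level of 0 equals that percentile, and a ratio is the level in the pool labelled knockout minus the level in the wild-type pool. A gene was counted as higher or lower when its ratio reached 2-fold, a log2 ratio of 1. Repeat spots of a probe differed by a median SD of 0.05, and different probes of a gene by a pooled SD of 0.23 over 4589 genes. The scanner software put the error of a log2 ratio at a median of 0.21 over genes. Dim probes can have larger errors, such as 0.38 for the Sry probe. These errors cover spots and probes, not animals.

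White adipocytes store triglyceride in a single large droplet, release fatty acids through lipolysis and secrete hormones such as leptin and adiponectin. Brown and beige adipocytes hold many small droplets and many mitochondria, and burn fatty acids to make heat through the uncoupling protein UCP1. WAT also holds precursor cells, fibroblasts, vessels and macrophages, and dissected depots can carry pieces of neighbouring muscle, lymph node or, in some female depots, mammary gland. PNPLA7 is a lysophospholipase of the patatin-like family that splits lysophosphatidylcholine into a fatty acid and glycerophosphocholine, from which choline can be recovered. The study, by its title, concerned that route in liver.

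The probes that carry the main differences are shown to identify what was measured. Each line gives the first 30 bases of a 60-base probe in the 5′ to 3′ direction, with the position of the probe on the mm9 build as the scanner files give it. Pnpla7 is the targeted gene. Ucp1, Elovl3 and Acot1 belong to the heat-producing and fatty acid programmes, Actc1 and Wfdc2 mark muscle and epithelium, and Npr3, Sncg, Lep and Cilp were among the lower genes of adipocytes and matrix.
Pnpla7, chr2:24908961-24909192: ccccaaggaaacgtatgctgacttccagag
Ucp1, chr8:85821788-85821847: ggaacgtcatcatgtttgtgtgctttgaac
Elovl3, chr19:46209762-46209821: ggcctggtaggcgcttaataaatgtctttt
Acot1, chr12:85358561-85358620: tctatggaaactggagctatccaagaaaag
Actc1, chr2:113873064-113873123: ctctcatcagtcattgtacagtttgtttac
Wfdc2, chr2:164393947-164394006: cgatgaaagcatctcctttttctaaccaat
Wfdc2, chr2:164389616-164389675: actcaatcagcgggccttgaccacactact
Npr3, chr15:11769937-11769996: aaacgtaccatgaatctggtagaagagtcc
Sncg, chr14:35183497-35183556: ggctccttttaccctatggtcctctgatca
Lep, chr6:29023234-29023293: agtttggatcttgggttttctgttaagaga
Cilp, chr9:65128007-65128066: tttctgtccatctcatgtgacagctgtcgt

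Pnpla7 itself was lower in the pool labelled knockout but did not disappear. Its single probe, which starts at base 4129 of the transcript, read 0.739 of the 75th percentile in wild-type WAT and 0.372 of it in the other pool, or 50.4% of wild type, a log2 ratio of -0.99 that lies just inside the 2-fold limit. In liver, where the probe was brighter, it gave 9.04 and 7.98 times the percentile, a log2 ratio of -0.18. Since the deleted part is not known, a probe outside it checks nothing, and the array is called labelled knockout from here on. Of the 7 genes of the patatin-like family, 6 were measured in WAT. Pnpla3, a triglyceride and phospholipid hydrolase that follows feeding in fat, was the only one of the 6 past 2-fold, at 3.39 in wild type and 2.23 in the labelled knockout (ratio -1.16, with its probes at -1.34 and -0.97). Pnpla2, the adipose triglyceride lipase, was at 6.12 and 6.54, and Pnpla6, the closest relative of Pnpla7, at 0.94 and 0.99. Pnpla1 was at -2.82 and -1.84 and Pnpla8 at -2.51 and -2.14. Pnpla5 was well above background on the wild-type array alone and was at least 2.03-fold lower in the other pool. The genes directly next to Pnpla7 on the chromosome did not share its ratio, with Mrpl41 at 0.11 and Nsmf at -0.37. Entpd8, the gene beyond Nsmf, was at -1.01 from a dim wild-type level of -4.04. Past Entpd8, Noxa1 was at 0.21, Nrarp at -0.81 and Tor4a at 0.03. On the other side Dph7 was at 0.17, Zmynd19 at -0.07, Arrdc1 at -0.11 and Ehmt1 at 0.14, and Pax8, 7 places away, at 1.18.

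Across all genes, 642 (4.31%) reached 2-fold in labelled-knockout WAT, 326 (2.19%) on the higher side and 316 (2.12%) on the lower side, and the median ratio was 0.02. The higher side reached further. At least 4-fold differences numbered 71 higher and 21 lower, and at least 8-fold differences 30 higher and 0 lower. Many of the higher genes started from dim values. Of the 326, 183 lay in the lowest 25% of wild-type levels and 38 in the highest 25%. For the 316 lower genes these counts were 65 and 55. Part of this contrast is built in, because the ratio subtracts the wild-type level. Of 113 counted genes with several measured probes, 112 had all probes on the same side of 0. Among 1235 further genes with only provisional names, 23 were higher and 9 lower, and among 4112 measured probes without a RefSeq name, 59 were higher and 40 lower. The same counts in liver were 255 (1.77%) higher and 126 (0.875%) lower of 14397 genes. These shares are the ones to set beside the counts of each gene list below. The lists were chosen with earlier results of these data known, so such a comparison describes a list and tests nothing.

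**Figure D1:**
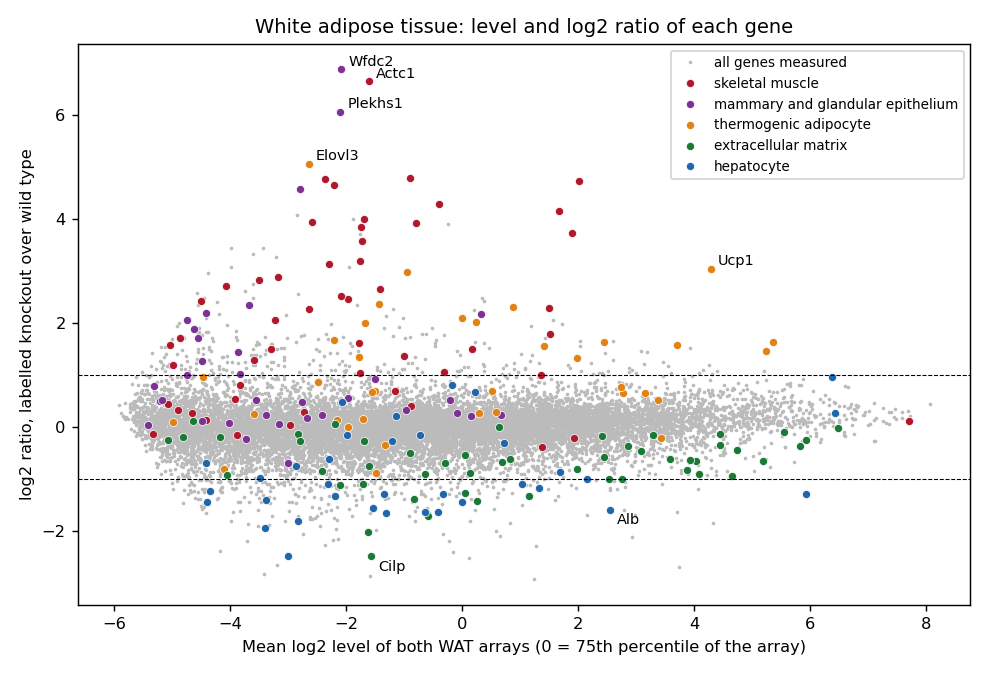
Log2 ratio (labelled knockout over wild type) of each gene measured in WAT against its mean log2 level on both WAT arrays, where 0 is the 75th percentile of the array and dashed lines mark 2-fold. Coloured points are members of 5 gene lists, and the largest ratios, those of Wfdc2 at 6.87 and Actc1 at 6.64, stand apart at the top.

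Among genes with a mean level above the 25th percentile of all genes, the 15 highest ratios were shared among muscle genes, epithelial genes and a pair of metabolic genes. Wfdc2, a secreted protein of glandular epithelia, went from -5.52 in wild type to 1.35 in the labelled knockout. Plekhs1 went from -5.13 to 0.92 and Cldn3, a tight junction claudin, from -5.08 to -0.50. Elovl3, which lengthens fatty acids in brown fat, went from -5.18 to -0.12, and Slc13a5, a citrate carrier of the plasma membrane, from -4.89 to -0.81. The other 10 were the sarcomere and muscle genes Actc1, Pvalb, Ttn, Myh4, Ckm, Tnnt3, Tnni2, Myom2, Mybpc2 and Myoz1, with ratios between 6.64 for Actc1 and 3.93 for Myoz1. The lowest level well above background on the wild-type array was -6.31, not far below the wild-type levels of Wfdc2, Plekhs1, Elovl3, Cldn3, Actc1, Slc13a5 and Ttn, so the size of those ratios is uncertain. With another background correction (normexp with an offset of 50) the ratio of Wfdc2 was 5.35, that of Actc1 5.35, that of Plekhs1 4.83, that of Elovl3 3.71 and that of Ttn 3.68.

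With the same limit on level, the 14 lowest ratios were those of fat, matrix, immune and liver genes. Npr3, the clearance receptor for natriuretic peptides, went from 2.70 to -0.22, and Sncg, a synuclein abundant in adipocytes, from 5.08 to 2.39. Esm1, a proteoglycan of sprouting endothelium, went from -0.16 to -3.01, Lbp, which binds bacterial lipopolysaccharide, from 1.38 to -1.13, and Cilp, a matrix protein, from -0.33 to -2.81. Nnat, an imprinted membrane proteolipid, went from 2.42 to 0.14, Slc6a13, a carrier of GABA and taurine, from 1.03 to -1.36, and Inhbb, the beta B subunit of activin, from 1.69 to -0.40. Complement C4b went from 3.97 to 1.87, the chemokine Ccl8 from 0.86 to -1.33, the neutrophil protein S100a8 from -1.15 to -3.31 and the serum amyloid Saa3 from -1.07 to -3.21. Folh1 and the liver cytochrome Cyp2c67 completed the group at ratios of -2.27 and -2.47. In wild type 8 of the 14 were above the 75th percentile, which held for 0 of the 15 highest. The ratio subtracts the wild-type level, so ranking by it favours bright wild-type values among the lowest ratios and dim ones among the highest.

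**Figure D2:**
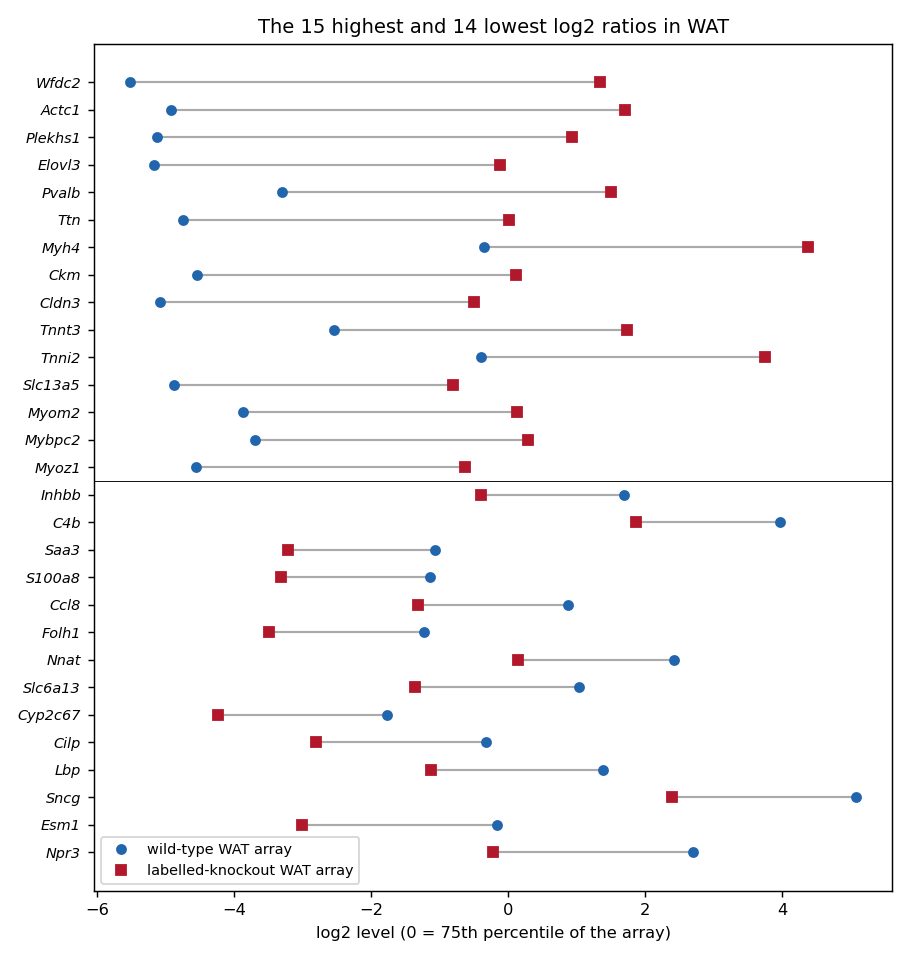
Log2 level (0 is the 75th percentile of the array) of the 15 genes with the highest and the 14 with the lowest log2 ratio in WAT among genes with a mean level above the 25th percentile, with circles for the wild-type array and squares for the array labelled knockout. The upper genes start between -5.52 (Wfdc2) and -0.35 (Myh4) in wild type, whereas the lower genes start as high as 5.08 (Sncg).

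Genes of skeletal muscle stood apart from all other lists. Of 66 markers, 52 were measured, 36 of them were at least 2-fold higher against 2.19% of all genes, 0 were lower, and the median ratio was 1.75. Genes of fast fibres led. Myh4, the fastest myosin heavy chain, was at -0.35 in wild type and 4.38 in the labelled knockout, fast troponin I (Tnni2) at -0.40 and 3.75, fast troponin C (Tnnc2) at 0.02 and 3.75, and the calcium buffer Pvalb at -3.30 and 1.49. Skeletal alpha-actin (Acta1) was at 0.34 and 2.63. The myosins of other fast fibres, Myh2 and Myh1, had ratios of 3.19 and 2.66, and the muscle creatine kinase Ckm 4.66.

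Of 14 measured slow and cardiac muscle genes 4 were higher against 2.19% of all genes and 0 lower, with a median of 0.02. They were Actc1, an actin of heart and developing muscle (-4.93 to 1.71), the myosin light chains Myl2 (a ratio of 1.72) and Myl3 (1.37) and the slow myosin Myh7 (-4.24 to -2.96), and 2 of the 4 stayed past 2-fold with normexp. Slow troponin T (Tnnt1) had a ratio of 0.04, and slow troponin I (Tnni1) was well above background on neither array. Embryonic myosin (Myh3) had a ratio of -0.14 and the satellite cell factor Pax7 0.13, while Myod1, Myog, Musk, Jph1 and Klhl41 were on neither array above background. A further 8 muscle genes (Casq1, Ampd1, Myoz2, Myot, Xirp2, Smpx, Myf6 and Mstn) were well above background on the labelled-knockout array alone. Summed over all 66 markers, also those not above background, the wild-type level was 217 times the 75th percentile and the other 311 times. Most of that sum was Car3, which adipocytes also express strongly (7.65 and 7.76). Over the 51 other measured markers the sums were 19.3 and 98.5, a 5.11-fold difference. Muscle genes such as Acta1 and Tnnc2 were well above background in the wild-type pool too. Smooth muscle and pericyte genes did not share the direction, with 0 of 19 past 2-fold and a median of -0.41, among them Acta2 at 3.58 and 2.99.

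Genes of epithelia were the second group with large ratios. Of 55 markers of mammary and other glandular epithelium, 35 were measured, 13 were higher against 2.19% of all genes and 0 lower, with 33 of 35 ratios above 0 and a median of 0.52. This list too was chosen with earlier results of these data known, so its counts only describe its members. Besides Wfdc2, Plekhs1 and Cldn3, the higher genes were Plet1 (2.35), the epithelial transcription factors Grhl2 (2.18) and Ehf (1.28), the keratin Krt18 (2.17, from -0.76 to 1.41), Tspan8 (2.06), the protease inhibitor Spint1 (1.89) and its protease St14 (1.44), Rab25 (1.70), Cldn7 (1.03) and the progesterone receptor Pgr (1.01). The adhesion genes Epcam and Cdh1, with Tmprss2 and Cldn8, were above background on the labelled-knockout array alone. The defining genes of mammary lobules gave another picture: the caseins Csn1s1, Csn1s2a and Csn2, Wap, and the luminal factors Elf5 and Foxa1 were on neither array, Csn3 and Wfdc18 on the wild-type array alone, and the basal keratins Krt5 and Krt14 had ratios of 0.52 and -0.23. The summed level of the list was 7.02 and 16.4 times the 75th percentile. With normexp 8 members stayed past 2-fold in place of 13, and among probes above the median level 1 of 8.

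Further epithelial lists, for the female reproductive tract, kidney tubule and urothelium, were written after the values were seen. Their counts therefore cannot show which organ these genes came from. The lists also share members: Wfdc2 is in the mammary and female tract lists, and Fxyd4 and Calb1 are in the female tract and kidney lists. Of all genes 2.19% were higher and 2.12% lower. In a list for the female reproductive tract 7 of 18 measured genes were higher, 18 of 18 ratios were above 0 and the median was 0.86, with Prap1, a secreted protein of uterus and gut, from -4.98 to -2.24, Msx1 from -2.71 to -1.43 and the urogenital factor Pax8 from -5.60 to -4.42. Its ciliated cell genes Foxj1, Tmem212 and Dnali1 were on neither array. Of 9 measured kidney tubule genes 2 were higher and 1 lower, and Umod, Slc12a1, Slc12a3, Kap and Slc22a8 were on neither array. Of 10 measured urothelial genes 2 were higher (Sprr1a and Upk2), and Upk3a was on the labelled-knockout array alone. In the list for epidermis and hair follicle 2 of 20 were higher and 1 lower, and Krt1, Flg and Ivl were on neither array. Fxyd4, a regulator of the sodium pump in kidney collecting duct and colon, had the largest bound of all genes: it was at 1.14 on the labelled-knockout array and not above background in wild type, a difference of at least 175-fold. No organ-defining set was complete on the labelled-knockout array, and which tissue these RNAs came from was not tested.

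Liver genes gave the opposite direction. Of 40 hepatocyte markers, 35 were measured in WAT, 20 were at least 2-fold lower against 2.12% of all genes, 0 were higher, and the median was -1.10. Albumin (Alb) was at 3.33 in wild-type WAT and 1.75 in labelled-knockout WAT, beside 8.32 and 8.05 in liver. The liver cytochromes Cyp2c29 and Cyp3a11 had ratios of -1.93 and -1.81, the plasma proteins Apoh, Fgg, Ttr and F2 of -1.65, -1.63, -1.62 and -1.56. Fat itself is known to express some genes of the list. Of these Cyp2e1 was at 5.89 and 6.86 and transferrin (Trf) at 6.30 and 6.57, while haptoglobin (Hp), at 6.57 and 5.27, was among the 20 lower members. Over the 32 measured members without those 3, the summed level was 42.4 in wild type and 21.6 in the labelled knockout, a ratio of 0.509. In liver 0 of 39 measured markers were past 2-fold and their median was -0.29. The bile acid enzyme Cyp7a1, the pericentral cytochrome Cyp1a2 and C9 were on neither WAT array, and Tdo2 on the wild-type array alone.

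Among liver-enriched genes the lower side prevailed only where liver exceeded fat the most. Of 602 genes whose wild-type level in liver exceeded that in WAT by 8-fold or more, 91 (15.1%) were lower and 58 (9.63%) higher in labelled-knockout WAT. Where liver exceeded fat by 8 to 32-fold, 27 of 290 genes were higher and 13 lower, and the median ratio was 0.11. Between 32 and 128-fold the counts were 20 and 14 of 140, with a median of 0.05. Above 128-fold, 64 of 172 genes were lower and 11 higher, with a median of -0.70 and quartiles of -1.32 and -0.09. Among the 14293 other genes 493 (3.45%) reached 2-fold, 268 (1.88%) of them higher and 225 (1.57%) lower. The median WAT-minus-liver difference in log2 level of the hepatocyte markers was -7.66 on the wild-type arrays and -8.49 on the labelled-knockout arrays, so both fat pools carried little of this RNA relative to liver. Whether it came from liver tissue or from fat cells was not tested.

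**Figure D3:**
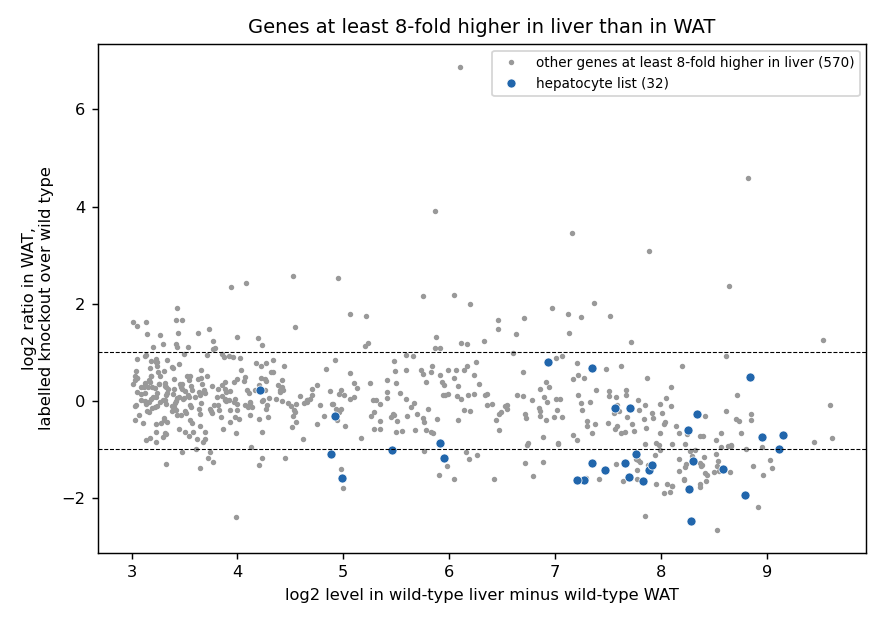
Log2 ratio in WAT (labelled knockout over wild type) of the 602 genes whose liver level exceeded the WAT level by 8-fold or more in wild type, against that liver-minus-WAT difference in log2 level. Blue points are the 32 hepatocyte markers among them, dashed lines mark 2-fold, and above a difference of 128-fold, 7 on the axis, 64 of 172 genes lie below the lower line.

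Most genes of adipocyte identity stayed within 2-fold. All 37 adipocyte identity genes were measured, and 2 were higher and 4 lower, against 2.19% and 2.12% of all genes. The median was 0.23 (0.04 with quantile normalization, which lowered bright genes). Adiponectin (Adipoq) was at 6.98 and 7.02, the fatty acid carrier Fabp4 at 7.61 and 7.83, the droplet coat protein Plin1 at 5.28 and 5.45, the master regulator Pparg at 4.84 and 5.18 and the glucose carrier Slc2a4 at 5.12 and 5.55. The 2 higher genes were Cidea, a droplet protein of brown fat (4.55 to 6.18), and Nrg4, a secreted factor of thermogenic fat (2.38 to 3.47). The 4 lower genes were Npr3, Sncg, Lep and Mest. Leptin (Lep), the hormone that reports fat stores to the brain, was at 1.57 in wild type and -0.42 in the labelled knockout, 25.1% of wild type. Mest, an imprinted gene tied to adipocyte enlargement, was at 0.14 and -1.24, with its 3 probes between -1.63 and -0.98.

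Genes known to follow fat mass lay on the lower side. Of 15 such genes 6 were lower and 0 higher, against 2.12% lower of all genes, with a median of -0.42. The 6 were Npr3, Sncg, Nnat, Lep, Bmp3 (from -0.51 to -2.48) and Mest. As the list was chosen with earlier results of these data known, its counts only describe its members. Caveolin 1 (Cav1), of the membrane pits abundant in large adipocytes, was at 1.96 and 1.11. The preadipocyte factor Dlk1 was at -2.11 and -1.23, and H19 at -2.90 and -2.04 with its probes apart at 0.00 and 1.73. Of 24 measured adipokines and secreted factors 3 were lower (Lbp, Nnat and Lep) and 1 higher (Nrg4), with a median of 0.03. In liver 0 of the 9 measured fat mass genes were lower. Because each array measured RNA of whole tissue, fewer cells of a type and less RNA per cell cannot be told apart in these or any other lists.

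Heat-producing genes were higher in the labelled-knockout pool. Of 36 measured genes of thermogenic adipocytes, 16 were at least 2-fold higher against 2.19% of all genes, 0 lower and 32 above 0, with a median of 0.82. The same list had a median of 0.04 in liver, but 5 of 33 measured members were higher there, against 1.77% of all genes. A further 2 were lower in liver, against 0.875%. Ucp1, the uncoupling protein, was at 2.76 and 5.80, an 8.20-fold difference on a bright probe. Dio2, which activates thyroid hormone within the cell, was at -2.44 and 0.54, Acot11, a thioesterase of brown fat, at -0.28 and 2.02, and Slc27a2, a very long chain acyl-CoA synthetase, at -0.77 and 1.24. Cyp2b10, a cytochrome of liver and fat, was at -2.62 and -0.25. Otop1, a proton channel of brown fat, was at -2.68 and -0.69 with its probes at 1.48 and 2.51, glycerol kinase (Gk) at -3.05 and -1.39, the droplet protein Plin5 at 1.63 and 3.25, and the potassium channel Kcnk3 at 1.32 and 2.65. The coactivator Ppargc1a, which drives mitochondrial biogenesis, was at -2.46 and -1.12. The 16 stayed at 16 with normexp and with quantile normalization.

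Some members of the thermogenic list are also known in muscle. Cpt1b, the muscle and brown fat carnitine palmitoyltransferase (-1.05 to 1.05), Fabp3, a heart and brown fat fatty acid carrier (0.64 to 2.19), and the respiratory subunits Cox7a1 (a ratio of 1.57) and Cox8b (4.51 to 5.98) belong to them. In the same pool the skeletal muscle list had 36 of 52 members higher and, without Car3, a summed level of 19.3 against 98.5, and its part in the ratios of the shared genes was not tested. The genes that set brown and beige identity were closer to level. Prdm16 was at -2.24 and -2.09, Ebf2 at 0.44 and 0.73, Zic1, a mark of brown fat depots, at -3.73 and -3.47, and the adrenergic receptor Adrb3 at 3.53 and 3.33. The beige marker Cited1 was at -2.93 and -2.06 and Tbx1 at -3.70 and -4.50, Lhx8 and Tmem26 were on neither array, and in a list of beige and white selective markers 0 of 16 genes were higher and 2 lower (Lep and Wfdc21). Of 10 measured creatine and calcium cycling genes 1 was higher, the muscle calcium pump Atp2a1, and Gamt was lower (2.20 to 1.14). Ckmt2, a mitochondrial creatine kinase of muscle and brown fat, was at -0.94 on the labelled-knockout array alone, at least 41.3-fold higher.

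The promoters of 2 thermogenic and 2 muscle genes with large ratios are shown, picked because they hold the short motifs searched. The window of Actc1 and a further window of Pvalb hold none of them. Each line is the 250 bases upstream of a RefSeq transcript start on GRCm38.p6, 5′ to 3′ on the gene's strand, and capitals mark the motifs, each searched on both strands. In Ucp1 the capitals mark AGGTCA, the core element that nuclear receptors recognise. In Dio2 they mark TGACGTCA, the cyclic AMP response element, and the TATA box core TATAAA. In Ckm they mark CAGCTG, an E box of the MyoD type. In Pvalb they mark CTATTT, a core shared with sites of the muscle factor MEF2, once on each strand.
Ucp1, chr8:83290098-83290347, plus strand: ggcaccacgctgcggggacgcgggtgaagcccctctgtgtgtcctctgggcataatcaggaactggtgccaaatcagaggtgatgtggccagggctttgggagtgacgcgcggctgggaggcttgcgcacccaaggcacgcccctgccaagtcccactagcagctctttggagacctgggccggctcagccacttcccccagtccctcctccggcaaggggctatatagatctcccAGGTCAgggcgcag
Dio2, chr12:90739039-90739288, minus strand: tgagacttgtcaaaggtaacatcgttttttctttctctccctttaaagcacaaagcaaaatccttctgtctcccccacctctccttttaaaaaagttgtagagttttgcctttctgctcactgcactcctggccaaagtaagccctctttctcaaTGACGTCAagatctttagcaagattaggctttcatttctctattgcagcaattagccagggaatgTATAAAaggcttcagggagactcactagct
Ckm, chr7:19410844-19411093, plus strand: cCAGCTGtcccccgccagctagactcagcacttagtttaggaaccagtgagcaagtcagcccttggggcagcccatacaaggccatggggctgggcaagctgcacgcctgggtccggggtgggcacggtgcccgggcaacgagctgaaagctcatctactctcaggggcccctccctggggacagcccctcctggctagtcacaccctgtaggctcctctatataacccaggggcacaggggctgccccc
Pvalb, chr15:78206401-78206650, minus strand: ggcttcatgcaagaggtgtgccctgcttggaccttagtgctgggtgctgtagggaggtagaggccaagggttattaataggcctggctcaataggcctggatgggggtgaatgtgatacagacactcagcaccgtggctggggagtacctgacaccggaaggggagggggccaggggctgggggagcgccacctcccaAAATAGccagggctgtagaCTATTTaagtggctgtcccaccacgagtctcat
Of 32851 promoter windows in the RefSeq table, 14.0% hold AGGTCA, 1.55% TGACGTCA, 12.4% TATAAA, 13.0% CAGCTG, and 3614 of them hold CTATTT. Among the 49 windows of the 41 measured muscle genes that matched the table, 42.9% hold CAGCTG and 22.4% CTATTT. Of the windows of all genes measured in WAT, 12.3% and 7.97% hold them. CTATTT is not particular to muscle, since 20% of the 30 windows of 27 macrophage genes hold it, and 20% hold CAGCTG. In extracellular matrix genes the shares are 18.9% for CAGCTG and 8.11% for CTATTT. Of the windows of higher and of lower genes, 11.6% and 11.7% hold CTATTT. Among the 39 windows of 29 thermogenic genes 15.4% hold AGGTCA and 2.56% TGACGTCA, near the 11.8% and 2.29% of all genes measured, and among 26 windows of 25 hepatocyte genes 38.5% hold AGGTCA. A match describes letters only and shows no binding.

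Mitochondrial genes had small ratios of one sign. All 42 measured subunits of the respiratory chain and ATP synthase had ratios above 0, from 0.09 for Atp5g1 to 0.74 for Ndufs8 (2.28 to 3.02), with a median of 0.47 and 0 past 2-fold. All 42 stayed above 0 with quantile normalization, where the median was 0.31. The 25% of genes with the highest level had a median of 0.09 and 63.1% of ratios above 0, and with quantile normalization 0.02 and 53.1%, so bright genes as a whole leaned the same way on the main scaling. All 24 tricarboxylic acid cycle genes were above 0 as well, with a median of 0.64. Pdk2, which restrains pyruvate dehydrogenase, was the 1 past 2-fold (0.53 to 1.80), and Pdha1 (3.82 to 4.72) and Dlat (1.85 to 2.72) came next. In liver the medians of these lists were -0.20 and -0.15.

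Fatty acid oxidation genes included larger ratios. Of 30 genes listed for mitochondrial fatty acid oxidation 6 were higher against 2.19% of all genes, 0 lower and 28 above 0, with a median of 0.65. Acot1, a cytosolic acyl-CoA thioesterase, was at -2.20 and 1.71, the carnitine carrier Slc25a20 at 0.72 and 1.94, Eci1 at 4.67 and 5.75 and the long chain dehydrogenase Acadl at 3.09 and 4.12, beside Cpt1b and Fabp3 above. Cpt1a, the liver form of the transferase, was at -0.89 and -1.35. Of 34 peroxisomal and PPAR alpha target genes 8 were higher against 2.19% of all genes, and 0 lower. Among the 8 were the thioesterases Acot3 (-3.31 to -0.79), Acot5 (-3.30 to -0.79) and Acot4 (-1.48 to 0.42). These thioesterases lie near Acot1 on chromosome 12 and share sequence with it, so probes of the cluster may read each other. Ehhadh, the peroxisomal bifunctional enzyme, had a ratio of 1.66. In liver the PPAR alpha list had 3 of 34 members higher against 1.77% of all genes there, and a median of -0.20. Muscle is rich in oxidation genes too, and the part of the muscle RNA in these small ratios was not tested.

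Glucose and amino acid breakdown shared the direction. Of 34 glycolysis and glycogen genes 5 were higher against 2.19% of all genes, and 0 lower, with a median of 0.50. But 3 of the 5 (Pgam2, Eno3 and Pygm) are on the muscle list, and without that list 2 of 31 were higher and the median was 0.46. The 2 were Fbp2 (-4.27 to -2.54), itself known from muscle, and the glycogen synthase Gys2 (0.51 to 1.66). Among 19 genes of branched chain amino acid breakdown 18 were above 0 and 2 higher, the phosphatase Ppm1k (-1.49 to -0.14) that switches the pathway on and the mitochondrial transaminase Bcat2 (2.31 to 3.43), with a median of 0.51 against -0.32 in liver.

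Of 27 measured genes of fatty acid and triglyceride synthesis, 2 were higher (Elovl3 and Acacb) and 1 lower (Pnpla3), with a median of 0.45. Acacb, the mitochondrial acetyl-CoA carboxylase that makes an inhibitor of fatty acid entry, was at 2.46 and 3.91, with its probes at 1.22 and 1.68. Elovl6 was at 4.78 and 5.69, the regulator Srebf1 at 1.19 and 2.06 and malic enzyme Me1 at 6.26 and 7.04. In liver the same list had a median of -0.44. Of 23 lipolysis genes only Gk was higher and only Npr3 lower, and hormone-sensitive lipase (Lipe, 2.64 to 3.20) and Abhd5 (2.14 to 2.78), a coactivator of Pnpla2, stayed within 2-fold. Of 17 lipid droplet genes Fitm1 (-5.86 to -3.29, from a dim value), Cidea and Plin5 were higher and 0 lower. Of all genes 2.19% were higher and 2.12% lower.

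Choline and phospholipid genes, the pathway of PNPLA7 itself, stayed within 2-fold. Of 33 measured genes of phosphatidylcholine and choline metabolism 0 were past 2-fold, with a median of 0.21. The glycerophosphodiesterase Gde1 had the largest ratio (2.05 to 2.89), the diesterase Gdpd5 the lowest (-0.43 to -1.02), and Gpcpd1, which splits glycerophosphocholine, was at -0.56 and -0.21. Mfsd2a, a carrier of lysophosphatidylcholine and outside the list, went from -3.49 to -0.41, an 8.43-fold difference, and was at 4.40 and 4.21 in liver. It was named after its values were seen. Of 34 methionine cycle and one-carbon genes 2 were lower, the liver enzyme Bhmt2 from a dim -4.09 to -5.30 and Gamt, and the median was 0.02. Cholesterol synthesis had 0 of 25 genes past 2-fold and a median of -0.13, and the ATF4 and unfolded protein response list 0 of 33 and -0.08.

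Matrix genes had ratios below 0 almost throughout. Of 51 measured extracellular matrix genes 48 had ratios below 0, 11 were at least 2-fold lower against 2.12% of all genes and 0 higher, with a median of -0.62 against 0.20 in liver. Cilp led, followed by the protease inhibitor Timp1 (-0.62 to -2.65), Spon2 (0.27 to -1.44) and Thbs1 (0.23 to -1.44). Genes of elastic fibres were among the lower ones: Mfap4 was at 0.96 and -0.47, elastin (Eln) at -0.13 and -1.52 and fibrillin 1 (Fbn1) at 1.82 and 0.48. Of the chains of collagen VI, which surrounds adipocytes, Col6a2 was lower (0.68 to -0.60), and Col6a1, at 5.12 and 4.19, and Col6a3, at 4.29 and 3.46, stayed within 2-fold. Fibronectin (Fn1) was at 4.53 and 3.63. The main fibrillar collagens were nearer to level, Col1a1 at 4.96 and 4.51 and Col3a1 at 6.06 and 5.81, and decorin (Dcn) was at 6.49 and 6.47. The summed level of the list was 613 and 466 times the 75th percentile.

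Stromal and vessel genes shared the direction in smaller steps. Among 30 preadipocyte and fibroblast genes 24 were below 0 and the median was -0.45, with Thy1 (2.32 to 0.99) and S100a4 (0.93 to -0.11) past 2-fold. Ccn5, a secreted regulator of fat precursor commitment, went the other way from -0.93 to 1.32, and Pdgfra, which marks the precursors, was at 0.21 and 0.38. Of 31 endothelial genes 27 were below 0 with a median of -0.35, and Esm1 and Vwf (-0.43 to -1.69, its probes at -1.79 and -0.73) were past 2-fold. Pan-endothelial genes stayed within it, with Pecam1 at -0.06 and -0.61, Cdh5 at 2.74 and 2.30 and Kdr at 2.43 and 2.39. All 7 measured lymphatic genes were below 0, led by Lyve1 (0.02 to -1.30). Of the others on the list, Prox1 was above background on neither array, and Reln and Nts on the wild-type array alone. Of 26 positional genes 2 were lower, Bmp3 and Meox1 (-0.47 to -1.56), and the Hox genes, which mark where a depot lies along the body, stayed within 2-fold, from -0.58 for Hoxc5 to 0.61 for Hoxa5. Hoxc9 was at 1.13 and 1.27, Hoxc8 at -2.33 and -2.11 and Wt1, a gene of visceral fat, at 1.27 and 1.28.

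Macrophage genes also lay below 0. All 35 were measured, 32 were below 0, 4 were lower against 2.12% of all genes and 1 higher against 2.19%, with a median of -0.77 against 0.13 in liver, and the summed level was 94.2 and 52.0. The 4 were Ccl8, the folate receptor Folr2 (1.49 to 0.23), lysozyme Lyz2 (0.04 to -1.13) and complement C1qa (1.25 to 0.22). Folr2, Mrc1 (1.81 to 0.84), Cd163 (-3.56 to -4.52) and Pf4 (3.04 to 2.06) are typical of resident tissue macrophages. Of the general markers, Adgre1 was at -0.54 and -1.46, Csf1r at 0.47 and -0.19 and Cd68 at -1.21 and -1.97. Cd14 was the exception (-0.83 to 0.63). All 9 measured genes of major histocompatibility class II were below 0, with a median of -0.73, among them Cd74 (2.68 to 1.90) and H2-Ab1 (3.62 to 2.89), and in liver their median was 0.38. The list for lipid-associated macrophages also holds Lpl and Cd36, which are on the adipocyte identity list too, so its values do not describe macrophages alone. Its median was -0.06, with 7 ratios above 0 and 10 below. Plin2 and Fabp5 had ratios of 0.45 and 0.46, and Ctsl and Ctsk of -0.56 and -0.35. Gpnmb was higher, from a dim -4.75 to -3.64, and Trem2 was at -1.49 and -2.04.

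Chemokines and acute phase genes held several lower members. Of 26 chemokines and cytokines 6 were lower against 2.12% of all genes (Ccl8, Ccl12, Ccl7, Cxcl14, Ccl2 and Csf1) and 2 higher against 2.19% (Cxcl1 and Cxcl13). With normexp neither Cxcl1 (0.92) nor Cxcl13 (0.97) reached 2-fold. The monocyte attractants Ccl2, Ccl7 and Ccl12 were at -0.83 and -1.98, -1.16 and -2.74, and -1.77 and -3.49. Of 21 acute phase genes 8 were lower against 2.12% of all genes, and 0 higher. But 10 of the 21 are at least 8-fold higher in liver, and 4 of the remaining 11 were lower. Lbp, Saa3 and Serpina3n (1.33 to -0.24) were among the 8. Of 21 complement genes 5 were lower against 2.12% of all genes, and C3, the central component, was at 6.50 and 6.88. Lymphocyte genes were mostly within 2-fold, with 1 of 27 higher (Cxcl13), 1 lower (Jchain, -1.19 to -3.16) and Cd3e at -0.85 and -1.24. Of 38 interferon-induced genes 1 was higher (Ifitm1, -1.59 to 0.19), and the median was -0.09. Neutrophil genes had S100a8 and F10 lower of 14 and S100a9 at -2.88 and -2.06, so the partners of calprotectin lay on opposite sides of 0.

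**Figure D4:**
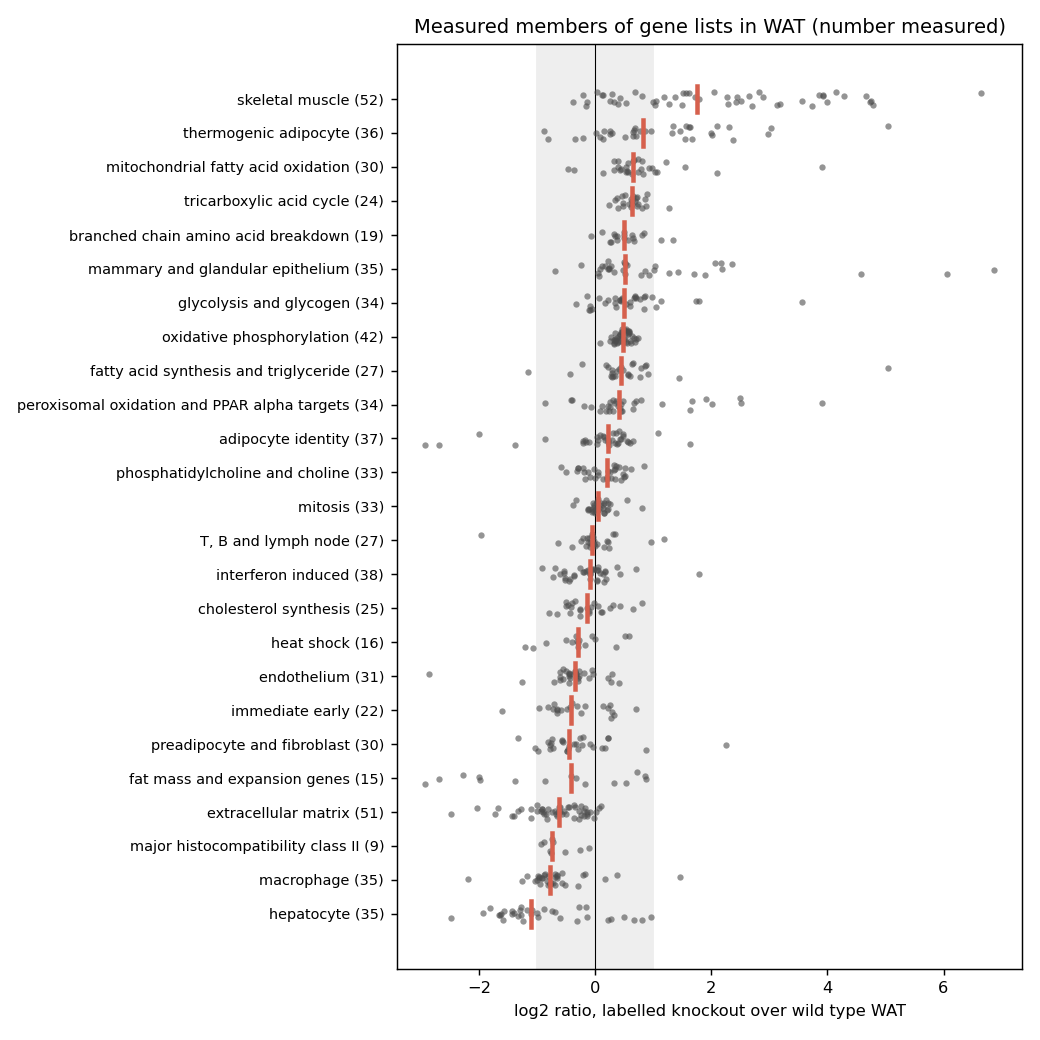
Log2 ratio in WAT (labelled knockout over wild type) of every measured member of 25 gene lists, with the number measured after each name, a red bar at the median and grey shading within 2-fold. Skeletal muscle (median 1.75) and thermogenic genes (0.82) lie highest and hepatocyte (-1.10) and macrophage genes (-0.77) lowest, while respiratory chain genes sit close together at 0.47.

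Signalling and stress lists held a few strong single genes. Among 27 insulin and growth hormone genes Cish, a STAT5-induced brake on cytokine receptors, was at 0.22 and 2.15 and the only one past 2-fold. Pim1, a further STAT5 target named after its values were seen, was at -2.08 and 0.02, whereas Socs2, named for the same reason, was at -1.67 and -1.55. Of 18 clock genes 3 were higher against 2.19% of all genes, and 2 with normexp. Among the 3 were Hlf (-0.60 to 0.48) and Cry1, from a dim -5.27 to -3.84. Dbp, a strongly cycling output gene, was at 4.68 and 5.33 and Arntl, its driver, at -2.74 and -3.56, and the hour of tissue collection is not stated. Hsd11b1, which regenerates active glucocorticoid in fat, was at 2.95 and 4.13, the 1 of 16 glucocorticoid genes past 2-fold. Immediate early genes had a median of -0.41 with Egr2 lower (-2.19 to -3.79), and heat shock genes a median of -0.30 with Cryab (3.16 to 1.95) and Hsph1 (0.88 to -0.20) lower. The hormone receptors Oxtr (1.74 to -0.10) and Tshr (0.08 to -1.72), for oxytocin and thyrotropin, and the caveolar coat protein Cavin3 (4.52 to 2.89) were likewise lower and were named after their values were seen.

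Proliferation genes stayed within 2-fold in fat. Of 33 mitosis genes 0 were past 2-fold and the median was 0.06, with Hmmr the largest at -0.53 and 0.28, and of 31 DNA replication genes 0 were past it and the median was -0.09. In liver 26 of 33 mitosis genes were higher in the labelled knockout against 1.77% of all genes there, with a median of 1.34. Of 21 imprinted genes Nnat and Mest were lower, and the median was -0.26. Erythroid genes, which follow blood in the tissue, had a median of -0.21 with Alas2 at 0.61 and 0.13 and Hbb-b2 at 3.97 and 3.54. Xist, made from the inactive X chromosome, was above background with both of its probes on both WAT arrays (0.84 and 0.55 for the brighter), and the Y-linked Ddx3y, Eif2s3y, Uty, Kdm5d, Usp9y and Zfy1 were on neither, while the Sry probe read -5.31 and -5.38, close to background.

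Genes seen on a single WAT array add to the extremes and have a bound in place of a ratio. The bound sets the bright level against the higher of the dim probe's own signal and the lowest signal well above background on the dim array. On the labelled-knockout array alone 179 genes were seen, 115 of them at least 2-fold higher. After Fxyd4 and Ckmt2 came the muscle genes Myot (at least 19.2-fold), Casq1 (17.6), Ampd1 and Art1 (9.67), and Mab21l3 (15.5) and the epithelial tetraspanin Tspan1 (14.8). On the wild-type array alone 832 genes were seen, but only 67 reached 2-fold. They were led by the liver genes Sult2a1 (at least 7.90-fold), Sult2a2 (5.63), Lect2 (4.81) and Ces2a (4.77), with Vmn2r33 (6.65), Fam183b (5.11), Chat (4.95) and Galr3 (4.66). The wild-type array had 72.6% of spots well above background and the other array 68.1%. The lowest level well above background was -6.31 on the wild-type array and -5.77 on the labelled-knockout array. Genes between these 2 levels can be seen on the wild-type array alone but cannot reach a 2-fold bound. The 2 sets of counts are therefore not on an equal footing, and the part of these gaps in them was not tested.

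Some genes differed in both tissues. Of 13817 genes measured in WAT and liver, 253 were higher and 248 lower in fat, and 33 of these were also at least 2-fold different in liver, 16 in the same direction and 17 in the opposite one. The 33 are 6.59% of the genes past 2-fold in WAT, where 2.25% of all 13817 were past it in liver, and 10.6% of those past it in liver, where 3.63% of all were past it in WAT. Shared higher genes were Sprr1a (2.18 in WAT and 3.88 in liver), the calcium carrier S100g (3.44 and 1.87), Tuba8 (2.49 and 1.71), Cidea (1.63 and 2.44), Bex1 (1.45 and 2.85) and Cox6a2 (3.71 and 1.23), a muscle and brown fat respiratory subunit. Shared lower genes included the hepcidin Hamp2 (-1.49 and -1.89), Wfdc21 (-1.60 and -1.49), Cyp3a16 (-2.38 and -1.30) and the cytochrome Cyp2c68 (-2.65 and -1.19). Of the 17 opposite genes 9 were lower in fat and higher in liver, led by Esm1 (-2.85 and 2.11), and 8 were higher in fat and lower in liver, led by Acpp (2.09 and -2.45).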

How the data were processed

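RNA of WAT and liver was measured on 1-colour Agilent mouse arrays, 1 array per genotype and tissue, each of 5 pooled animals. The authors deposited the intensity of each spot as read by Agilent Feature Extraction 11.0.1.1, whose processed signal is linear and background-subtracted, per the file headers. The authors' deposited value table holds the ratio of the same signal to each array's 75th percentile, linear and without centring. Its column medians were 0.0737, 0.0751, 0.0876 and 0.0875 for wild-type liver, knockout liver, wild-type WAT and knockout WAT.

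Of 44397 spots per array 43020 were not controls. They gave 39429 probes after outlier spots were left out and repeat spots averaged. Between 65.5% and 72.6% of spots were well above background and 0 were saturated. Precision is limited by the array number. The log2 processed signal relative to the 75th percentile of its array was used for probes well above background on both WAT arrays, and measured probes of a gene were averaged. Names came from RefSeq tables: 27228 probes matched by accession, 3581 by symbol and 565 by synonym, and 8055 did not match. Python 3.11.15, numpy 2.4.6 (also for quantile normalization), pandas 2.3.3, R 4.3.3 and limma 3.58.1 (normexp) were used. Scripts were tested on simulated data.

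No test was run, because each group is 1 array. The genes described with values were the patatin-like family, the 15 highest and 15 lowest ratios above the 25th percentile of level, up to 8 of the largest ratios per list, up to 8 bounds per direction, up to 10 genes shared with or opposite to liver, and sex-linked genes. Some genes under this rule are not reported here. Other genes were named after their values were seen. The members and lists were chosen with earlier results of these data known, and the kidney, female tract and urothelium lists were written after the values were seen. Alternatives were other background corrections, scalings, filters and probe rules, 1.5 and 3 as fold limits, and leaving out muscle, other-tissue or liver-enriched genes.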

Additional observations from a re-analysis of the deposited data

Results flagged for a closer look

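Of the 17 genes past 2-fold in opposite directions in WAT and liver, the 10 whose smaller ratio was farthest from 0 are given here, and with 1 array per group the difference between tissues was not tested. Lower in labelled-knockout WAT and higher in labelled-knockout liver were Esm1 (log2 ratio -2.85 in WAT and 2.11 in liver), Timp1 (-2.02 and 1.78), Saa3 (-2.15 and 1.76), Slpi (-1.26 and 2.21) and Adamts4 (-1.20 and 1.76). Esm1 is made by endothelium, Timp1 and Adamts4 act on the matrix, and Saa3 and Slpi are made in inflammation. Higher in WAT and lower in liver were Acpp (2.09 and -2.45), Cyp2b10 (2.37 and -1.42), Acot11 (2.31 and -1.16), Coq8a (1.55 and -1.65) and Cxcl13 (1.19 and -1.75). Acpp was dim in WAT, at -5.46 in wild type and -3.37 in the labelled knockout, whereas Slpi, at 1.24 and -0.02, and Coq8a, at -1.24 and 0.30, were not.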

How the results depend on the processing

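No paired analysis was possible because each group is 1 array, and no array could be left out. Against 326 higher and 316 lower genes, normexp gave 207 and 161, adding 50 to the processed signal 194 lower, no filter on dim probes 624 and 617, probes above the median level 91 and 90, a limit of 1.5-fold 891 and 1153, and a limit of 3-fold 131 and 68. Of 172 genes past 2-fold under the naming rule or named in the text, 145 remained past it with normexp, 152 with 50 added and 167 to 172 under the other scalings, filters and probe rules that kept all of them, and 0 changed sign. Those that did not with normexp were Adamts4, Bex1, Bhmt2, C5ar1, C6, Cldn7, Cry1, Csf1, Cxcl1, Cxcl13, Ehf, Entpd8, Fga, Gpnmb, Msln, Myh7, Myl2, Pax8, Pfkfb4, Pgr, Rab25, S100a4, St14, Tchh, Tfrc, Upk2 and Vwf. The share of higher among called genes ran from 49.3% to 56.3% over the scalings and filters. Leaving out muscle genes gave 290 and 316, other-tissue genes 272 and 294, and liver-enriched genes 268 and 225. The skeletal muscle median was 1.46 with normexp and 1.48 with 50 added. Above the median level the medians were 1.30 for thermogenic, 0.26 for mammary and glandular, -1.53 for fat mass, -0.37 for slow and cardiac muscle, -0.29 for lymphocyte 0.33 for NK, innate lymphoid and mast cell, -0.067 for urogenital and ovary and 0.13 for acute phase genes, where fewer genes were measured; slow muscle, NK, urogenital and acute phase medians changed sign. The remaining 454 list medians, counted once per alternative, moved by less than the spread. Pnpla7 ran from -1.01 to -0.88 and passed 2-fold only with the percentile taken over measured probes. Signal over background limits the largest ratios, which start from dim wild-type values.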
